A study of Homo sapiens with 12 samples.

Results

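The 8 genes described here are 6 SOX transcription factors, SOX4, SOX9, SOX11, SOX12, SOX13 and SOX15, and the forkhead factors FOXC1 and FOXQ1. They were chosen by name from 23228 genes in the deposited tables, and the choice followed from the low levels of SOX11 and FOXQ1 where estrogen receptor beta was present with its ligand. For those 2 genes, values that involve that condition are therefore a description without a test. The stated choice named no values of the other 6, which were tested across the genome in every comparison. The list of 8 was nevertheless drawn up with earlier results of these data known. Counts of the 6 set against all genes are therefore a description. All 8 passed the filter on low counts, which left 14541 genes. RefSeq places SOX13 on chromosome 1, SOX11 on chromosome 2, SOX4, FOXC1 and FOXQ1 on chromosome 6, SOX9 and SOX15 on chromosome 17, and SOX12 on chromosome 20.

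RNA sequencing was done on MDA-MB-468, an established human triple-negative breast cancer line, carrying a doxycycline-inducible estrogen receptor beta 1 (ERβ1, gene ESR2). All cells were held in phenol red-free DMEM with charcoal-stripped serum, 10% for 3 days and then 5% during the experiment. The 12 libraries formed 4 groups of 3: uninduced vehicle (no doxycycline, 0.1% DMSO), uninduced E2 (no doxycycline, 10 nM 17β-estradiol), induced vehicle (50 ng/mL doxycycline, 0.1% DMSO) and induced E2 (50 ng/mL doxycycline, 10 nM 17β-estradiol). Doxycycline was given for 48 hours, and the vehicle or E2 for the 4 hours that followed. Every induced library had doxycycline as well as the receptor, so the drug and the receptor cannot be told apart here. No source used here says whether the line is a single clone.

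SOX proteins bind DNA through an HMG box, a domain that bends the double helix, and act in the specification of stem, progenitor and lineage cells. SOX4, SOX11 and SOX12 form the SoxC group, SOX9 belongs to SoxE, SOX13 to SoxD and SOX15 to SoxG. Forkhead proteins bind DNA through a winged-helix domain. In breast tissue SOX9 is known for its part in mammary stem and progenitor cells, SOX4 and SOX11 for their link to aggressive disease, FOXC1 as a marker of basal-like tumours and FOXQ1 as a promoter of epithelial-mesenchymal transition.

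Total expected counts per library ran from 7889310 to 33326800, and in each group the library numbered 1 held the fewest. ESR2 was at 1.30 ± 0.22 CPM (counts relative to library size, scaled by the TMM method; SD, n = 3) in uninduced vehicle, 1.61 ± 0.57 in uninduced E2, 121 ± 11.7 in induced vehicle and 104 ± 10.2 in induced E2, in the direction of the labels. The basal markers EGFR and KRT5 were present at group means of 2316 to 2512 and 596 to 857 CPM. The luminal keratin KRT8 was present too, at group means of 1946 to 2811 CPM. PGR reached at most 2.23 counts in a library and did not pass the filter. ESR1, the gene of estrogen receptor alpha, and ERBB2 did pass, with at most 136 and 2375 counts in a library. Libraries numbered 1 differ from those numbered 2 and 3 in the date and lane written in the deposited file names, and they held the lowest level of SOX4, SOX9, SOX11 and FOXC1 in 4 of 4 groups and the highest of SOX15. Because libraries of the same number varied together, the fit with the number as a block is given where it changes a member's call or moves a list's count.

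Levels of the 8 genes differed widely in uninduced vehicle. Per transcript length, in TPM, a unit corrected for length and made from the authors' fraction of transcripts, SOX9 was highest at 128 ± 7.10 (SD, n = 3). SOX4 followed at 96.5 ± 6.70 and FOXC1 at 91.0 ± 5.29, and the libraries of those neighbours overlapped. SOX12 at 24.2 ± 0.68 TPM and SOX13 at 23.7 ± 0.32 TPM overlapped as well. Below them stood FOXQ1 at 19.2 ± 1.30, SOX15 at 10.3 ± 1.503 and SOX11 at 5.29 ± 0.90 TPM, with no overlap between these neighbours. In induced E2 the order was SOX9 (91.1 ± 1.80), FOXC1 (85.3 ± 14.2), SOX4 (74.4 ± 3.77), SOX13 (19.2 ± 1.22), SOX12 (17.7 ± 0.86), SOX15 (9.23 ± 2.32), FOXQ1 (5.13 ± 0.44) and SOX11 (1.17 ± 0.37 TPM). There SOX9 and FOXC1, FOXC1 and SOX4, and SOX13 and SOX12 overlapped. FOXQ1 thus stood above SOX15 in uninduced vehicle, overlapped it in induced vehicle (11.2 ± 2.16 against 10.4 ± 1.49 TPM), and stood below it in induced E2.

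**Figure D1:**
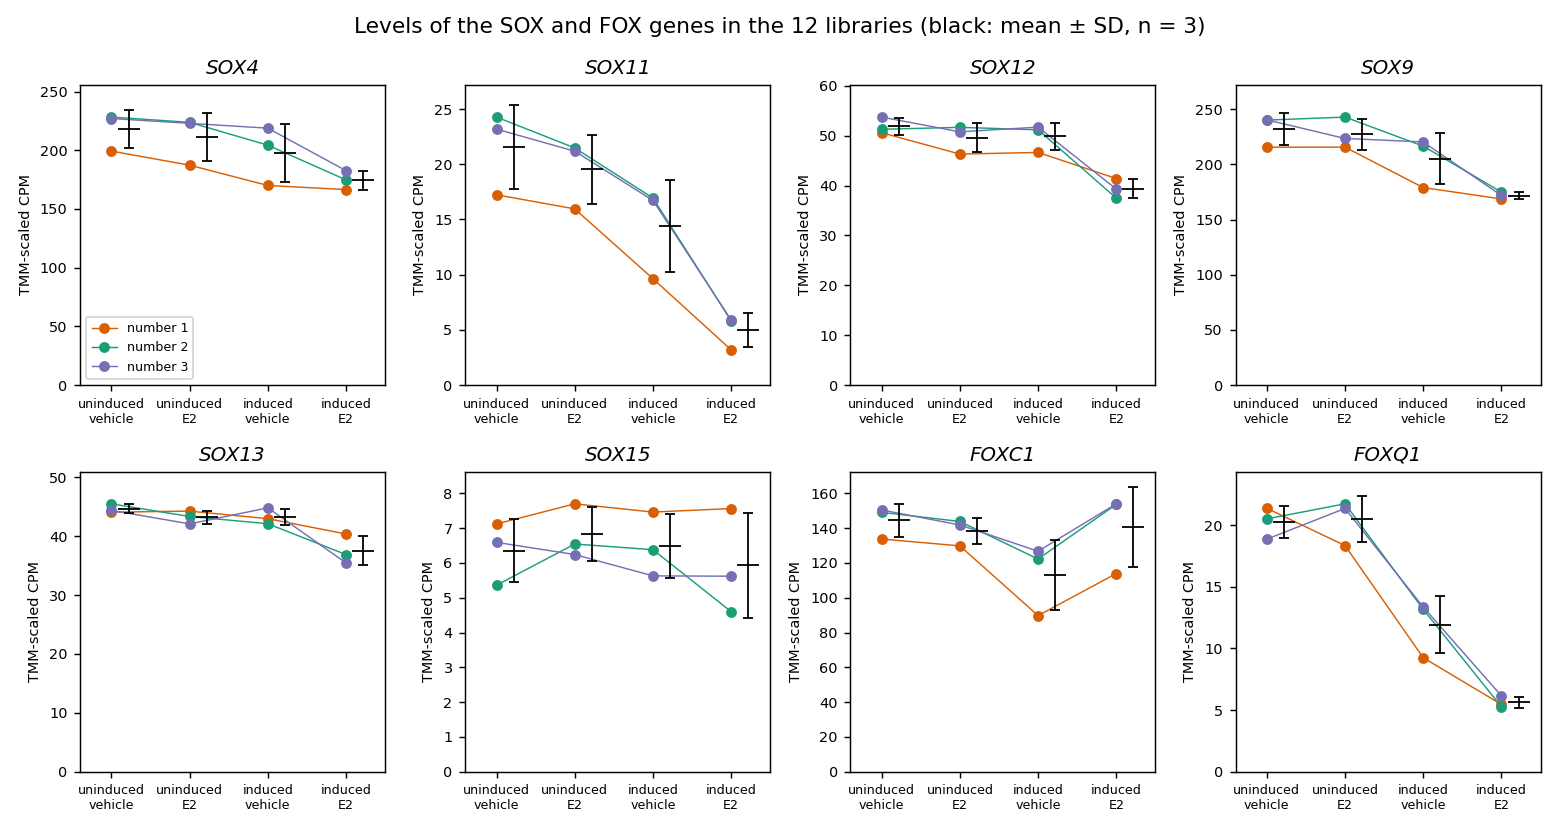
TMM-scaled CPM (vertical axis, starting at 0) of each gene in the 12 libraries, by group (horizontal axis). Coloured points joined by lines are libraries of the same replicate number, and black marks are the mean ± SD over n = 3. SOX11 and FOXQ1 step down from uninduced vehicle to induced vehicle and again to induced E2, while FOXC1 is lowest in induced vehicle, at 113 ± 20.2 CPM.

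SOX11, a SoxC factor of embryonic neural and mesenchymal progenitors, was the lowest per length and, on the log2 scale, had the widest span between group means, as its choice implies. Its uninduced vehicle libraries held 17.2, 24.3 and 23.2 CPM, numbers 1 to 3 in order. Uninduced E2 held 15.96, 21.5 and 21.2 CPM. Induced vehicle held 9.64, 16.9 and 16.7 CPM and induced E2 held 3.18, 5.82 and 5.89 CPM. Every induced E2 library was below every other library, every induced vehicle library was below every uninduced vehicle library, and the uninduced groups overlapped. Induced vehicle also overlapped uninduced E2. Number 1 was the lowest in each group, by a margin that makes the SOX11 groups broad. The lowest library still held 56 counts. With doxycycline in the absence of E2, SOX11 was 1.49-fold lower (log2 −0.58, SE 0.20, edgeR adjusted p = 0.146), and with the replicate block the adjusted p was 3.36e-05. The induced vehicle libraries of that comparison are also the controls of the E2 fall for which SOX11 was chosen. These p-values are thus not independent of the choice. As a description, E2 in induced cells went with a 2.93-fold lower level (log2 −1.55, SE 0.23), and induced E2 stood 3.88-fold under uninduced E2 (log2 −1.96, SE 0.22).

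SOX4, the most abundant SoxC member, is known for roles in progenitor survival and TGF-β responses. It held 199, 228 and 227 CPM in uninduced vehicle, 187, 224 and 223 in uninduced E2, 170.0, 204 and 219 in induced vehicle, and 167, 175 and 183 in induced E2. Induced E2 lay wholly below both uninduced groups and overlapped induced vehicle, which in turn overlapped the uninduced groups. With doxycycline in the presence of E2, SOX4 fell by 0.28 on the log2 scale (SE 0.09, edgeR adjusted p = 0.0277). That call was lost without uninduced E2 library 2 (adjusted p = 0.111) or 3 (0.107), and without induced E2 library 1 (0.0866) or 2 (0.0718). In induced cells E2 went with a log2 difference of −0.18 (SE 0.09, adjusted p = 0.202), which passed with the block (adjusted p = 0.00151) and without induced vehicle library 1 (0.0227). Doxycycline without E2 gave −0.14 (SE 0.09, adjusted p = 0.488; with the block 0.0227).

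SOX12, the least studied SoxC member, gave the smallest adjusted p of the tested members for E2 in induced cells. It held 50.6, 51.3 and 53.7 CPM in uninduced vehicle and 46.3, 51.7 and 50.8 in uninduced E2. Induced vehicle held 46.6, 51.2 and 51.7 CPM, and induced E2 held 41.4, 37.5 and 39.3. The 3 induced E2 libraries lay below the other 9, which overlapped one another. With E2 in induced cells SOX12 fell by 0.35 (log2, SE 0.06, edgeR adjusted p = 0.000547), and with doxycycline in the presence of E2 by 0.34 (SE 0.06, adjusted p = 0.000346). Neither call was lost on leaving out any single library. Doxycycline without E2 gave −0.06 (SE 0.06, adjusted p = 0.722), with a 95% interval of −0.18 to 0.07. The E2 change in induced cells was lower than that in uninduced cells by 0.28 (log2, SE 0.08, adjusted p = 0.0417), a call that did not hold without any of 9 single libraries, listed in the closing observations, or with DESeq2 (0.0506).

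SOX9, a regulator of progenitor state and of cartilage formation, stepped down over the induced groups. It held 216, 240.3 and 241 CPM in uninduced vehicle, 216, 243 and 224 in uninduced E2, 179, 217 and 220.4 in induced vehicle, and 169, 175 and 172 in induced E2. Induced E2 was below every other library, although by a narrow margin against induced vehicle library 1. SOX9 fell by 0.26 with E2 in induced cells (log2, SE 0.07, edgeR adjusted p = 0.0192). It fell by 0.40 with doxycycline in the presence of E2 (SE 0.07, adjusted p = 0.000489). The first call was lost without induced vehicle library 2 (adjusted p = 0.110) or 3 (0.102) and without induced E2 library 1 (0.0557) or 3 (0.0584); the second held without any single library. Doxycycline alone gave −0.18 (SE 0.07, adjusted p = 0.227; with the block 0.00814). The difference between the E2 changes of induced and uninduced cells was −0.23 (SE 0.10, adjusted p = 0.227; with the block 0.00940, and 0.0146 without induced vehicle library 1).

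SOX13, a SoxD factor that lacks a transactivation domain and is known in T-cell and vascular lineages, varied least. Over the 9 libraries outside induced E2 it lay at 42.1 to 45.5 CPM, and the induced E2 libraries held 40.4, 36.9 and 35.5, below all of those. SOX13 fell by 0.21 with E2 in induced cells (log2, SE 0.05, edgeR adjusted p = 0.0114) and by 0.20 with doxycycline in the presence of E2 (SE 0.05, adjusted p = 0.00675). The first call was lost without induced vehicle library 3 (adjusted p = 0.0631), induced E2 library 2 (0.0516) or induced E2 library 3 (0.0644).

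SOX15, the lone SoxG member and a factor of muscle and placental development, held 57 to 219 counts per library. Its group means were 6.36 ± 0.90, 6.83 ± 0.77, 6.49 ± 0.92 and 5.93 ± 1.51 CPM from uninduced vehicle to induced E2, and all groups overlapped. E2 in induced cells gave a log2 difference of −0.14 (SE 0.17, edgeR adjusted p = 0.683), with a 95% interval of −0.50 to 0.23. SOX15 lies antisense to MPDU1, which is in the same table, and the labels do not say whether counting used strand, so reads of the pair may not be separable. SOX4, SOX9 and SOX12 overlap antisense RNAs, and SOX11 an RNA on its own strand, in GENCODE; these RNAs are not among the genes of the deposited tables, and the same limit holds.

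FOXC1 was the one member of the 8 with a higher mean in induced E2 than in induced vehicle. It held 134, 149 and 150.5 CPM in uninduced vehicle and 129.8, 144 and 142 in uninduced E2. Induced vehicle held 89.8, 122 and 127 CPM, and induced E2 held 114, 154 and 154. All induced vehicle libraries were below all uninduced vehicle libraries, and induced E2 overlapped induced vehicle and uninduced E2. Doxycycline without E2 gave a log2 difference of −0.35 (SE 0.12, edgeR adjusted p = 0.156) and E2 in induced cells one of 0.31 (SE 0.12, adjusted p = 0.107), neither of which passed. With the replicate block FOXC1 fell with doxycycline alone (adjusted p = 0.000232) and rose with E2 in induced cells (adjusted p = 0.000180). Without induced E2 library 1 the E2 difference was 0.44 (adjusted p = 0.0116). Induced E2 against uninduced E2 gave 0.02 (SE 0.12, adjusted p = 0.920), with a 95% interval of −0.23 to 0.28. The difference between the E2 changes was 0.37 (SE 0.17, adjusted p = 0.250; with the block 0.00201, and 0.0460 without induced E2 library 1).

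FOXQ1, without the replicate block, was the one member called lower with doxycycline in the absence of E2. It held 21.4, 20.5 and 18.9 CPM in uninduced vehicle, 18.3, 21.7 and 21.3 in uninduced E2, 9.25, 13.2 and 13.4 in induced vehicle, and 5.46, 5.27 and 6.16 in induced E2. The induced groups lay wholly below the uninduced ones and did not overlap each other, while the uninduced groups did. With doxycycline without E2, FOXQ1 fell to 0.608 of its level (log2 −0.72, SE 0.11, edgeR adjusted p = 0.00167). This call held on leaving out any single library. The induced vehicle libraries are also the controls of the E2 fall for which FOXQ1 was chosen, so the call is not independent of the choice. As a description, E2 in induced cells went with a 2.17-fold lower level (log2 −1.12, SE 0.13), and induced E2 stood 3.66-fold under uninduced E2 (log2 −1.87, SE 0.12).

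FOXQ1 and FOXC1 are near neighbours on chromosome 6. Of the protein-coding genes in RefSeq GRCh38.p14, only LOC124905366 and FOXF2 stand between them. Their 250-base upstream windows are therefore shown together, with that of SOX12, the SOX member with the smallest adjusted p for E2 in induced cells. RefSeq upstream sequences were matched for 5 of the 8 members, SOX4, SOX12, SOX13, FOXC1 and FOXQ1. All 3 windows printed are on the plus strand, at chr6:1311848-1312097 for FOXQ1, chr6:1609665-1609914 for FOXC1 and chr20:325302-325551 for SOX12, and end at the base before the transcript start. Capitals mark matches on either strand to the Sp1 box GGGCGG, the CCAAT box CCAAT, and GGTCA, an arm of the estrogen response element.
FOXQ1: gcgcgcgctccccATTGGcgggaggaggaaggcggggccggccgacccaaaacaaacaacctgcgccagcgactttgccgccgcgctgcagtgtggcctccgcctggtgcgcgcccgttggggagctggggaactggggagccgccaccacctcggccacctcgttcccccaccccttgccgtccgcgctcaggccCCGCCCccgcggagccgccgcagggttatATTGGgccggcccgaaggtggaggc
FOXC1: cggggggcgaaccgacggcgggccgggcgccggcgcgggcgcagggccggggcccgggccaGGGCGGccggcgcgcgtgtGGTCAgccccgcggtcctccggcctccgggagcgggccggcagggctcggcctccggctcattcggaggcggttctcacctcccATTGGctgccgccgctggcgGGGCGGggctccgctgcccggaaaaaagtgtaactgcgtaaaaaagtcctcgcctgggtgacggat
SOX12: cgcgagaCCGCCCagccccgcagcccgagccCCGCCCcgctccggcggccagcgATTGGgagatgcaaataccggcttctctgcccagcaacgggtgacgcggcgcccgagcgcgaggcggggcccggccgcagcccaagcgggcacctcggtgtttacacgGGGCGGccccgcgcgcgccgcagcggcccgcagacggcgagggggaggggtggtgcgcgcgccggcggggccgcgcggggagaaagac

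The windows were rich in G and C, at 74.0% for FOXQ1, 76.8% for FOXC1 and 79.2% for SOX12, against a median of 58.0% over 35116 windows. A full estrogen response element, GGTCANNNTGACC, was in 0 of the 5 member windows and in 0.0399% of all windows. The shorter GGTCA, which the full element contains, was in 2 of 5 (FOXC1 and SOX4) and in 32.6% of all. The Sp1 box was in 4 of 5, against 42.6%, and the CCAAT box in 4 of 5, against 32%. The AP-1 motif TGANTCA, a site of the Jun and Fos proteins through which estrogen receptors are known to act without binding DNA directly, was in 0 of 5 and in 6.57% of all. These are letter matches in short windows and do not show binding.

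The other protein-coding genes around FOXQ1 and FOXC1 that passed the filter were not called in any comparison. EXOC2, a subunit of the exocyst, FOXF2, a forkhead factor of mesenchyme, GMDS, an enzyme of GDP-fucose synthesis, and MYLK4, a kinase, passed the filter. FOXF2 was near the filter limit, at 0.52 to 0.70 CPM. The log2 differences of EXOC2 were −0.03 to −0.01 over the comparisons of groups, and those of GMDS −0.03 to 0.06. Near SOX11 lie the interferon-stimulated genes CMPK2 and RSAD2. With doxycycline in the absence of E2 the log2 difference of RSAD2 was 0.66 (edgeR adjusted p = 0.0554; with the block 1.09e-07, with limma-voom 0.0362) and that of CMPK2 was 0.43 (0.0805; with the block 0.000446, with DESeq2 0.0234). With the block RSAD2 was also called for E2 in induced cells (log2 −0.24, adjusted p = 0.00149), doxycycline in the presence of E2 (0.27, 0.000508) and the interaction (−0.37, 0.00183), and CMPK2 for the interaction (−0.32, 0.0287). RNF144A, a ubiquitin ligase, fell by 0.33 with doxycycline in the presence of E2 (adjusted p = 0.0165), and the call was lost without uninduced E2 library 2 (0.0852) or induced E2 library 1 (0.0618). With the block RNF144A was called for E2 in induced cells as well (adjusted p = 0.0307).

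Set side by side, the members split by comparison. E2 in uninduced cells called 0 of the 8 members and 0% of the 14541 genes with edgeR, with or without the block. The groups did not overlap for 0 of 8 members, against 6.44% of all genes. At an unadjusted p under 0.05 it marked 0 of 8 members and 227 genes, DESeq2 called 1 gene and limma-voom 0. The 95% intervals of the log2 difference reached from −0.57 to 0.23 for SOX11, from −0.19 to 0.26 for FOXQ1, from −0.32 to 0.19 for FOXC1 and from −0.16 to 0.06 for SOX13. Larger changes of these genes with E2 without the induced receptor lie outside those intervals.

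Doxycycline without E2 called 1 of 8 members lower and 0 higher, where 1.37% of all genes were called lower and 2.44% higher. With the replicate block 5 of 8 were called lower (SOX4, SOX9, SOX11, FOXC1 and FOXQ1) and 0 higher, where the block called 4.48% of all genes lower and 5.54% higher. The groups did not overlap for 3 of 8 members, SOX11, FOXC1 and FOXQ1, against 10.1% of all genes in that direction. The median log2 difference of the 8 was −0.16, beside −0.0012 over all genes tested. SOX11 and FOXQ1 were chosen for a fall measured against these induced vehicle libraries, so nothing is read from the counts of 8. Of the other 6 members, 0 were called (3 lower with the block), 1 did not overlap, FOXC1, and the median was −0.10.

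E2 in induced cells called 3 of the 6 tested members lower (SOX9, SOX12 and SOX13) and 0 higher, where 6.61% of all genes were called lower and 9.85% higher. With the block 4 of 6 were lower, SOX4 being added, and FOXC1 was higher, where the block called 10.3% lower and 13.5% higher. Induced E2 lay wholly below induced vehicle for 3 of the 6, against 13.9% of all genes. The median of the 6 was −0.19, beside −0.0050 over all genes. Doxycycline in the presence of E2 called 4 of 6 lower (SOX4, SOX9, SOX12 and SOX13) and 0 higher, with or without the block, where 13.0% of all genes were called lower without it, 18.2% with it, and 28.0% in either direction without it. Induced E2 lay wholly below uninduced E2 for the same 4, against 20.5% of all genes. In that comparison 2184 genes were higher and 1894 lower, and upper quartile scaling turned this split to 1799 higher and 2679 lower. The median of the 6 was −0.25, beside −0.011 over all genes. The E2 change differed between induced and uninduced cells for 1 of 6, SOX12, where 2.81% of all genes were called lower and 5.66% higher. With the block SOX12 and SOX9 were lower and FOXC1 higher, where 5.88% and 8.86% were called. These comparisons share groups and are not independent of one another. The 6 were listed with earlier results of these data known, so their shares beside those of all genes are a description.

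**Figure D2:**
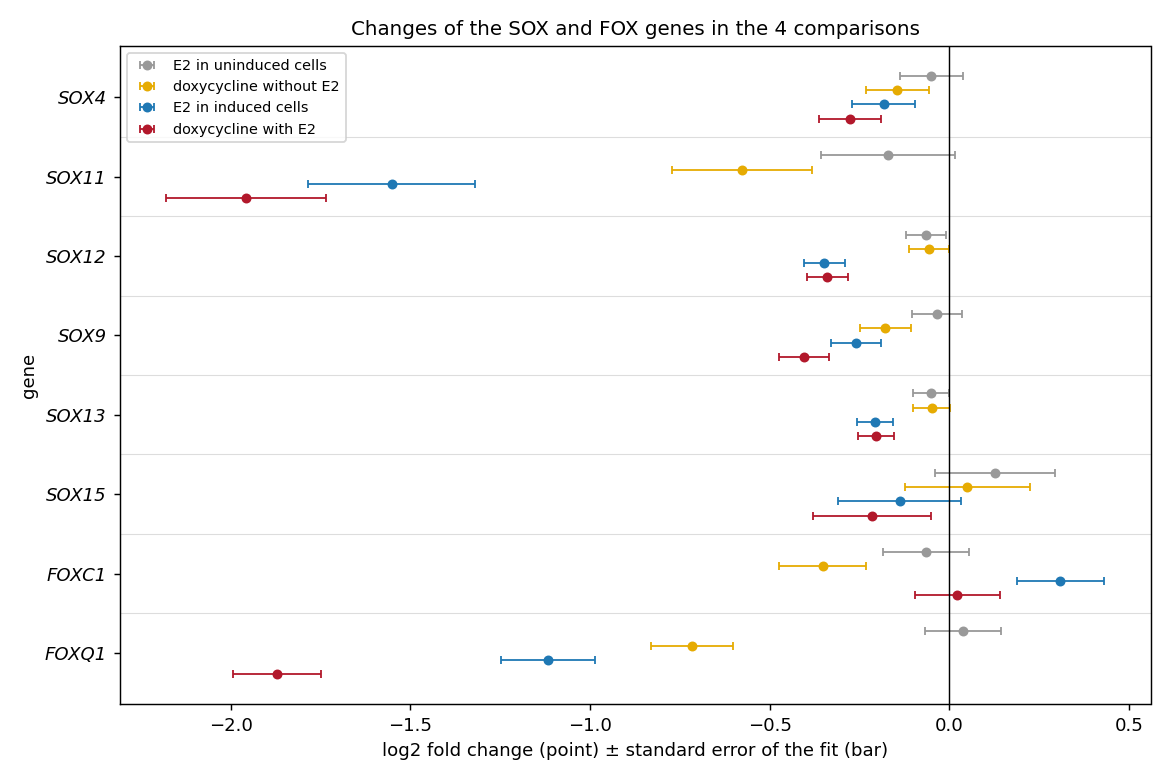
Log2 fold changes (horizontal axis) of the 8 genes (vertical axis) in the 4 comparisons of groups, as points with the standard error of the edgeR fit as bars. The E2 changes of uninduced cells sit between −0.17 and 0.13, SOX11 and FOXQ1 reach −1.96 and −1.87 with doxycycline in the presence of E2, and FOXC1 changes side between doxycycline without E2 (−0.35) and E2 in induced cells (0.31).

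The genes whose log2 CPM most resembled SOX11 over the 12 libraries were the adhesion receptor gene LPHN2 (Pearson r = 0.993), PROM1, which encodes the membrane protein CD133 (0.991), the homeobox gene BARX2 (0.991), the desmosomal cadherin gene DSC2 (0.991) and KLF5, a zinc-finger factor (0.990), among 12368 genes. Those most like FOXQ1 were IGFBP3, which encodes an insulin-like growth factor binding protein (0.991), the sestrin gene SESN3 (0.989), the kinase inhibitor gene CDKN2B (0.987), PPP1R3C, a glycogen-targeting phosphatase subunit (0.986), and ST5 (0.986). The libraries share their 4 groups, so these coefficients mostly describe the steps between groups. IGFBP3 stood at 438 ± 5.96 CPM in uninduced vehicle, 432 ± 19.8 in uninduced E2, 251 ± 24.9 in induced vehicle and 124 ± 6.28 in induced E2 (SD, n = 3). LPHN2 stood at 184 ± 22.4, 186 ± 18.6, 147 ± 21.97 and 70.6 ± 11.1 CPM in the same order. Between members, r of SOX11 was 0.952 with SOX9, 0.946 with FOXQ1, 0.894 with SOX12 and 0.882 with SOX4. It was 0.752 with SOX13, 0.245 with FOXC1 and 0.023 with SOX15. SOX11 and FOXQ1 were both chosen for the same fall, so a high r between them is implied by the choice.

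Of 13 other SOX genes, only SOX7, an endothelial factor of the SoxF group, passed the filter, and it was called in none of the 5 comparisons. Of the other 12, 7 were at 0 in every library and none reached more than 10 counts. Of 42 other forkhead genes, 41 were in the table and 21 passed. Adding E2 to induced cells raised 4 of the 21 and lowered 2, where 9.85% of all genes were called higher and 6.61% lower (4 and 5 with the block, against 13.5% and 10.3%). FOXO3, a factor restrained by AKT signalling, rose by 0.84 (log2, SE 0.05, edgeR adjusted p = 1.19e-08), and FOXJ1, the regulator of motile cilia, rose by 1.66 (SE 0.11, adjusted p = 8.20e-08). FOXK2, an ubiquitous forkhead factor, rose by 0.32 (adjusted p = 0.000164). FOXA1, the pioneer factor of estrogen receptor alpha in luminal cells, fell by 0.70 (SE 0.06, adjusted p = 2.89e-06).

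With doxycycline without E2, 3 of the 21 forkhead genes rose and 0 fell, where 2.44% of all genes were called higher and 1.37% lower (3 and 2 with the block, against 5.54% and 4.48%). FOXA1 rose by 0.37 (adjusted p = 0.00397), FOXJ1 by 0.76 (0.00499) and FOXO3 by 0.25 (0.00531). FOXA1 thus went from 37.3 ± 2.50 CPM in uninduced vehicle to 47.7 ± 2.16 in induced vehicle and 29.5 ± 2.73 in induced E2 (SD, n = 3), up and then down, where the group means of FOXC1 went down and then up. With doxycycline in the presence of E2, 4 rose and 5 fell, where 28.0% of all genes were called in either direction (5 and 6 with the block), among them FOXO3 (1.104), FOXJ1 (2.38), FOXK2 (0.27) and FOXP1 (−0.68). The median of the 21 was −0.11 with E2 in induced cells and 0.0002 with doxycycline alone, beside −0.0050 and −0.0012 over all genes. E2 in uninduced cells called 0 of 21.

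**Figure D3:**
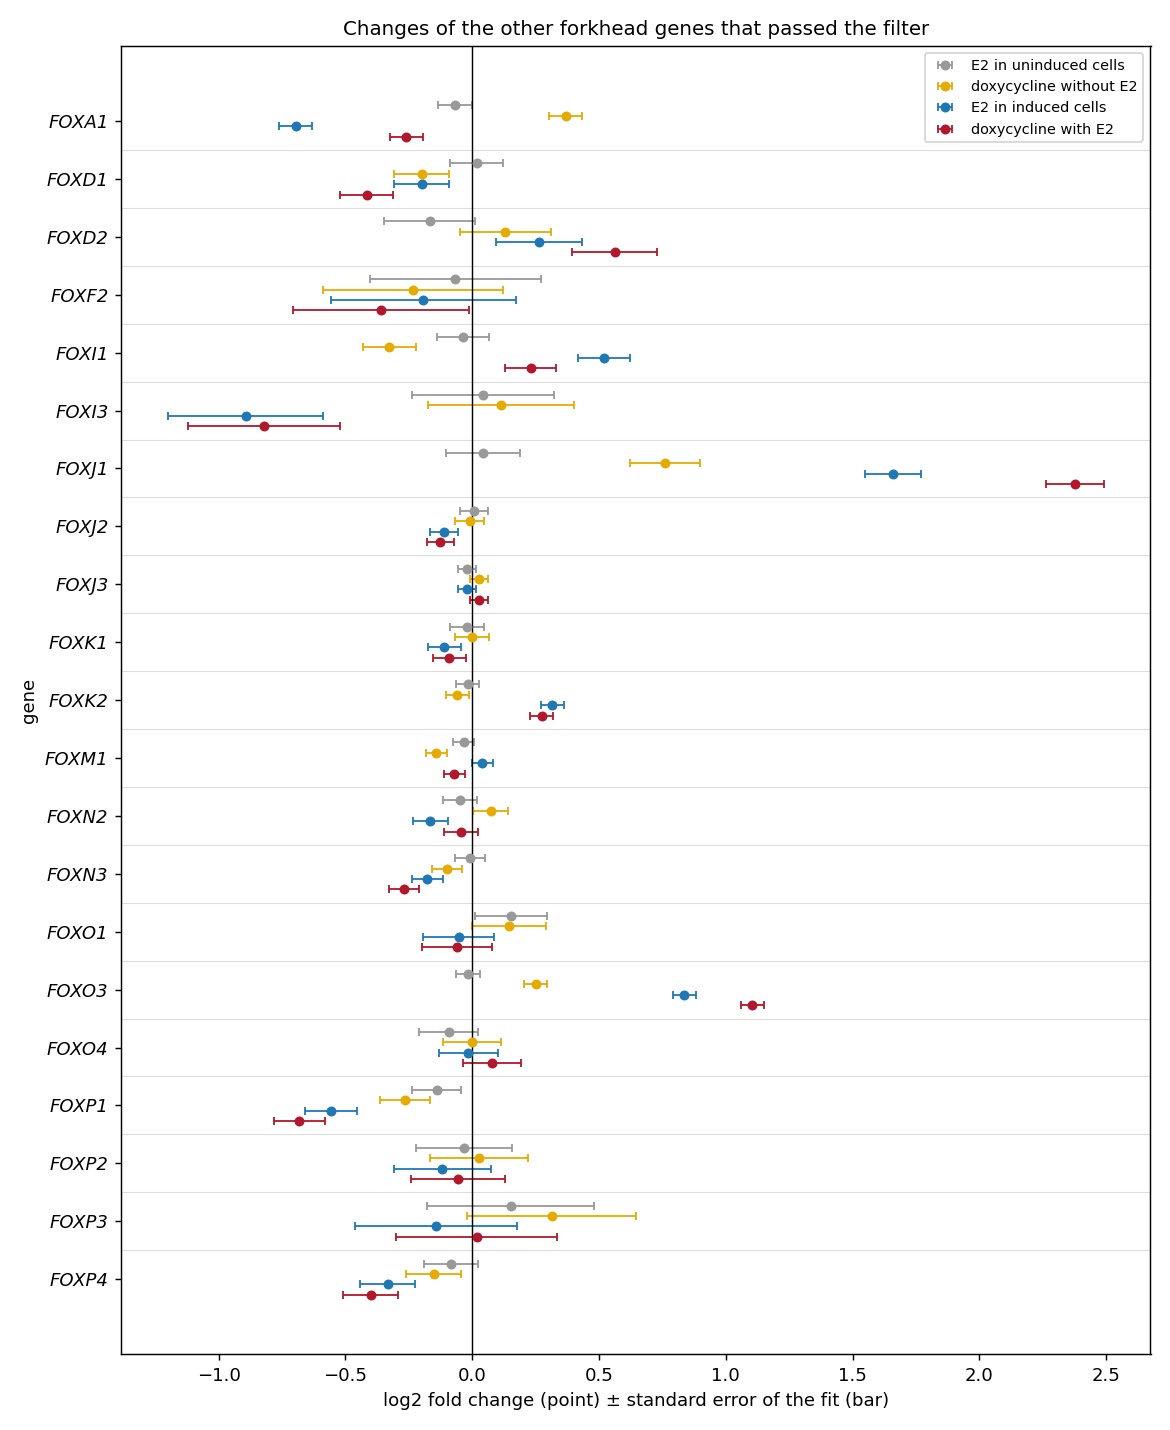
Log2 fold changes (horizontal axis) of the 21 other forkhead genes that passed the filter (vertical axis), as points with the standard error of the edgeR fit as bars, in the 4 comparisons of groups. FOXJ1 and FOXO3 reach 2.38 and 1.104 with doxycycline in the presence of E2, and FOXA1 lies at 0.37 with doxycycline alone and at −0.70 with E2 in induced cells.

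The TCF/LEF factors share the HMG box with the SOX proteins and act at the end of the Wnt pathway. Of 4 listed, 3 passed. Without the block TCF7L2 alone was called. It fell by 0.20 with E2 in induced cells (edgeR adjusted p = 0.0185), where 6.61% of all genes were called lower. With doxycycline in the presence of E2 it fell by 0.16 (0.0373), where 13.0% of all genes were called lower. The latter call was lost with DESeq2 (0.156), with no filter (0.0597) and with only the 2 groups compared (0.0514). It was also lost without uninduced vehicle library 3, induced vehicle library 2 or any 1 library of the E2 groups. With the block TCF7L1 rose by 0.21 with E2 in induced cells (adjusted p = 0.00191), where 13.5% of all genes were called higher. TCF7L2 was then also called for the interaction (−0.24, adjusted p = 0.0398), where 5.88% of all genes were called lower. The TCF7L2 call for E2 in induced cells was lost with DESeq2 (0.0849) and without induced vehicle library 2 (0.0731) or 3 (0.0904) or induced E2 library 2 (0.0502) or 3 (0.0622).

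Some markers of the epithelial states also changed, against the shares of all genes called that stand above. Of 20 listed basal genes 18 passed. With doxycycline without E2, 8 fell, 1 rose and 9 were not called (10 fell and 3 rose with the block, which called 4.48% of all genes lower), where 1.37% of all genes were called lower, including KRT5 (−0.51, adjusted p = 2.43e-05) and KRT14 (−0.81, adjusted p = 0.00136), and adding E2 to induced cells lowered 4, raised 1 and left 13 not called (7 and 3 with the block), where 6.61% of all genes were called lower. Their summed level was 4202 to 4449 TPM in uninduced vehicle, 3019 to 3445 in induced vehicle and 2850 to 3107 in induced E2. Of 20 luminal genes 16 passed, of which 6 rose and 0 fell with doxycycline without E2 (9 and 1 with the block), where 2.44% of all genes were called higher. When induced cells received E2, 6 rose, 1 fell and 9 were not called (8 rose and 2 fell with the block), where 9.85% of all genes were called higher. E-cadherin, CDH1, rose by 0.91 in the latter (adjusted p = 1.52e-09). The summed luminal level was 10668 to 10942 TPM in uninduced vehicle and 13832 to 14215 in induced E2. In bulk RNA, fewer cells of a kind and less RNA per cell cannot be told apart, and the part of these shifts in the SOX and FOX values was not tested.

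Of 21 genes of epithelial-mesenchymal transition, the process FOXQ1 is known to promote, 15 passed. Adding E2 to induced cells raised 0 and lowered 3 (1 and 6 with the block), where 6.61% of all genes were called lower; those 3 include the TGF-β receptor gene TGFBR2, which fell by 0.80 (edgeR adjusted p = 6.98e-09). With doxycycline without E2, 1 rose and 1 fell, where 2.44% of all genes were called higher and 1.37% lower (2 and 2 with the block, against 5.54% and 4.48%). TGFBR2 fell by 0.31 (edgeR adjusted p = 0.000323). SPARC, with at most 97 counts in a library, rose (adjusted p = 0.0134). That call was lost without uninduced vehicle library 2 (0.0966) or 3 (0.0963). Of 9 markers of blood and endothelium 4 passed. Doxycycline without E2 raised 0 of the 4, lowered 1 and left 3 not called, where 1.37% of all genes were called lower. That 1 was the endothelial receptor gene KDR, which fell by 0.97 (edgeR adjusted p = 0.00188). The median log2 difference of the 4 was −0.41 there and 0.37 with doxycycline in the presence of E2. The summed level of the 9 was 23.5 to 25.6 TPM in uninduced vehicle and 14.6 to 17.9 TPM in induced E2.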

How the data were processed

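The 12 deposited tables hold RSEM expected counts per gene, and next to the counts a fraction of transcripts, deposited by the authors, which adds up to 1 per library and was turned into TPM here. RSEM 1.1.16, DESeq 1.7.10 (role not given) and hg19 are named in the submitters' processing notes, with the aligner not given in the sources used here. RNA came from an RNeasy Plus kit and libraries from TruSeq V2, per the labels' protocols. Expected counts were rounded and fitted with edgeR 4.0.16 in R 4.3.3 on all 12 libraries, with filterByExpr (minimum count 10, minimum total 15), TMM scaling, 1 mean per group, the quasi-likelihood test and Benjamini-Hochberg adjustment over 14541 genes. A gene is called at an adjusted p under 0.05; a log2 fold change is the first group minus the second. The depth limits SOX11 and SOX15 most, the members with the fewest counts.

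The labels give triplicates but not separate cultures, so p-values measure the spread between these libraries, which may be technical. Over 12376 genes, deviations from group means correlated at 0.104 to 0.464 in all 18 same-numbered pairs. In the other pairs they correlated at −0.43 to 0.28 (median −0.22), so the ranges overlapped. Centring on group means lowers the values of those other pairs. These values therefore cannot separate a pairing by every number from a difference of number 1 alone. What sets number 1 apart cannot be told apart from its file date and lane. The biological coefficient of variation was 5.34%, and 2.90% with the block.

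The members and lists were chosen with earlier results of these data known. By rule the text names the 8 members and up to 4 called genes per list and comparison with the smallest p. The rule also covers the 5 genes most correlated with SOX11 and with FOXQ1, and the 3 annotated protein-coding genes on each side of FOXQ1, FOXC1 and SOX11. EGFR, KRT8, FOXA1's levels and the alternatives' calls are named beyond the rule. Gene order and upstream windows are from RefSeq GRCh38.p14, another build than the counts'. Alternatives were the block, DESeq2 1.42.0, limma-voom (limma 3.58.1), other scaling and filters, 2 groups only, and leaving out libraries or numbers.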

Additional observations from a re-analysis of the deposited data

Results flagged for a closer look

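In the fit without the block, the E2 change of SOX12 was lower in induced than in uninduced cells by 0.28 on the log2 scale. The difference was −0.28 (SE 0.08, edgeR adjusted p = 0.0417, interaction term of the fit). With the replicate block the adjusted p was 0.00646. The call was lost without uninduced vehicle library 1 (0.0763), 2 (0.105) or 3 (0.0538), uninduced E2 library 2 (0.117) or 3 (0.105), induced vehicle library 2 (0.129) or 3 (0.118), or induced E2 library 2 (0.121) or 3 (0.0886). It was also lost with DESeq2 (0.0506), and without all libraries numbered 2 (0.608) or 3 (0.446).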

How the results depend on the processing

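Over 23 alternatives, the 40 member values (8 genes, 5 comparisons) gave 912 recomputed values, of which 853 kept their side of the threshold (835 with the same sign, and 18 values not called, over 7 results, with the other sign), 35 lost a call, 21 gained one, 3 moved without a test, and 0 called values changed sign. With the replicate block, doxycycline without E2 called 1456 genes in place of 554, and the interaction 2143 in place of 1232; the cause was not tested. The block changed no member's call beyond those given with the members. For E2 in uninduced cells DESeq2 called 1 gene in place of 0. On leaving out a library, or a number in all groups, counts ran from 990 to 3391 for E2 in induced cells (2394 with all), from 106 to 1082 for doxycycline without E2 (364 without uninduced vehicle library 2 and 369 without library 3), from 0 to 1 for E2 in uninduced cells, from 2054 to 5064 for doxycycline with E2 (4078 with all) and from 306 to 2105 for the interaction.

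Without all libraries numbered 2 or 3, which leaves 2 per group, the adjusted p of SOX12 for E2 in induced cells was 0.0624 or 0.0546, that of SOX9 was 0.214 or 0.319, that of SOX13 was 0.159 or 0.343, and that of FOXQ1 for doxycycline without E2 was 0.0663 or 0.0510. For doxycycline with E2 these were 0.271 or 0.150 for SOX4 and 0.138 or 0.116 for SOX13. Without number 1, doxycycline without E2 was called for SOX11 (4.04e-05), FOXC1 (2.96e-05) and SOX9 (0.0219), E2 in induced cells for SOX4 (6.97e-05) and FOXC1 (1.98e-06), doxycycline with E2 for FOXC1 (0.0220), and the interaction for SOX4 (0.00816), SOX9 (0.000694) and FOXC1 (1.66e-05). FOXA1, FOXJ1, FOXO3, KDR and SPARC lost their calls for doxycycline without E2 without number 2 or 3, and KRT14 and TGFBR2 without number 3. By CPM without length, SOX11 ranked 6, FOXQ1 7 and SOX15 8 among the members in uninduced vehicle.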
